A study of Mus musculus with 4 samples.

Results

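The 43 genes described here encode the folding, export and degradation machinery of the endoplasmic reticulum (ER). They were chosen by name for these roles, without a rule on measured values but with earlier results of these data known. Each was read from the brightest of its own probes. They stood among 19718 genes with a probe of their own on the array, of which 18478 could be tested, and 41 of the 43 were among those tested. The cells were MA-10, an established clonal line of mouse Leydig tumor cells, the testicular cells that make androgens. The control arrays H001 and H002 held RNA of vehicle-treated MA-10 cells. The cordycepin arrays H003 and H004 held RNA of MA-10 cells given 100 µM cordycepin, and both groups were taken at 3 h. Cordycepin is an adenosine analogue that ends a growing RNA chain once it is built in. The labels give PBS as the vehicle and the methods of the study give DMSO, and neither says whether a group's 2 arrays hold separate cultures. The spread behind every p-value is that of these arrays and may be technical.

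Proteins bound for secretion or membranes enter the ER through the Sec61 channel, where chaperones, lectins and disulfide isomerases fold them, and chains that fail to fold are pulled back to the cytosol and degraded by the proteasome. When unfolded chains build up, the sensors IRE1 (Ern1), ATF6 and PERK start the unfolded protein response. IRE1 splices Xbp1 mRNA into the form that encodes an active transcription factor, and XBP1 and ATF6 then drive many of the genes below. Steroid-producing Leydig cells carry an extensive smooth ER, where part of steroid synthesis takes place. The study asked which stress and death pathways respond to cordycepin in these cells, and it named this response from the same arrays, so the counts below are no independent evidence of a direction.

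ATF6 and XBP1 act through short promoter motifs, and the promoters shown here are those of members that hold the best known motif or that carry the results below. The ER stress response element (ERSE) was searched as CCAAT, then any 9 bases, then CCACG, on both strands of the 250 bases before and 50 bases after each RefSeq transcription start (GRCm38.p6). A window was given for 35 of the 43 members. In the windows below, written 5′ to 3′ along the gene, capitals mark an ERSE match on either strand, and a window all in lower case holds no match.
Hspa5 promoter, chr2:34771840-34772139 (+ strand): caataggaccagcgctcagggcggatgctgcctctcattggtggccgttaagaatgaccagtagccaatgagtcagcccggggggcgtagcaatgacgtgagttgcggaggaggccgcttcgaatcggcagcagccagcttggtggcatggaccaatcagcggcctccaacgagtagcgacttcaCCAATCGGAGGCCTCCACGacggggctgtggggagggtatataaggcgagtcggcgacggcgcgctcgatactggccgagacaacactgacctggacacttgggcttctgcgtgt
Hsp90b1 promoter, chr10:86705395-86705694 (- strand): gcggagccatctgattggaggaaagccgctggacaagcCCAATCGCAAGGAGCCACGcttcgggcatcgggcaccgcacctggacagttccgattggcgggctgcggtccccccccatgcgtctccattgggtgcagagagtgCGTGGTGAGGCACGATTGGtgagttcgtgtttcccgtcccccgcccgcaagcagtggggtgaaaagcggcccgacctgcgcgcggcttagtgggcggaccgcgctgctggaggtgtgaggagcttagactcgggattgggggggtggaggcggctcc
Pdia6 promoter, chr12:17266339-17266638 (+ strand): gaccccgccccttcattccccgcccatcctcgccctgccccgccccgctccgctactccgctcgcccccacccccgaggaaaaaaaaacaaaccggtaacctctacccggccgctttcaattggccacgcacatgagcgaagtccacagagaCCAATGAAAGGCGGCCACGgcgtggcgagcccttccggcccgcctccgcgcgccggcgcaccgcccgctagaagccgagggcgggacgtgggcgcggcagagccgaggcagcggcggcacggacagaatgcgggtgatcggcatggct
Syvn1 promoter, chr19:6046326-6046625 (+ strand): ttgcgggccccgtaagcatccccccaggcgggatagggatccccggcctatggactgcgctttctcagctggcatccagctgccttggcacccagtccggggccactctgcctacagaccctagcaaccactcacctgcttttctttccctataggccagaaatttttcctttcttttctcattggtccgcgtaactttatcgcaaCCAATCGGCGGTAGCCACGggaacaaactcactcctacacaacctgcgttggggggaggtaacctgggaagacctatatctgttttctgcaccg
Xbp1 promoter, chr11:5520391-5520690 (+ strand): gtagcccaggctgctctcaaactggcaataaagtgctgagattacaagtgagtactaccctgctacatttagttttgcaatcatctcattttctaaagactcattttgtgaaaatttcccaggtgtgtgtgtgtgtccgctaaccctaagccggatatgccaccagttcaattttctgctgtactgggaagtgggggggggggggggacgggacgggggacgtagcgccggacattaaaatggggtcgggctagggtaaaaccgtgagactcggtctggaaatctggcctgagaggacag
The match began 44 bases before the start in Syvn1, 65 in Hspa5 and 98 in Pdia6, and Hsp90b1 held 2 matches, at 212 and 107 bases before the start. ERSE matches stood in 8 of the 35 members' windows, against 37 of 27025 genes with a window (0.137%). They were Calr, Canx, Creld2, Hsp90b1 and Hspa5 of 7 chaperone and lectin genes, Ero1lb and Pdia6 of 6 disulfide genes, and Syvn1 of 11 degradation genes. The 4 sensor and factor genes and the 7 entry and export genes with a window held none, Xbp1 included. The 8-base element TGACGTGG, bound by XBP1 and ATF6 and called UPRE here, stood in Sec24d, Ube2j1 and Vcp, against 0.714% of all genes. The variant called ERSE-II (ATTGG, 1 base, CCACG) stood in 0 of the 35 members and in 0.0444% of all genes. Both short boxes of the ERSE are common by themselves, with CCACG in 26 members (35.5% of all genes) and CCAAT in 23 (41.1%). The members were chosen for roles in this organelle, and many are known targets of these factors, so a higher share than among all genes is no independent result. A match describes the letters of a window and says nothing of binding.

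**Figure D1:**
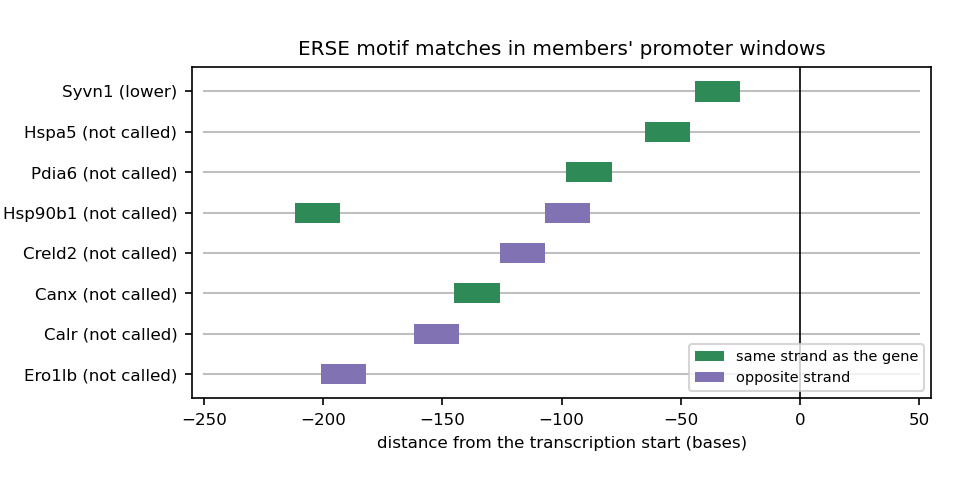
Position of each ERSE match in bases from the transcription start (0, black line) for the 8 members that hold one. Grey lines are the windows searched, bar colour gives the strand, and the call in brackets is that of the cordycepin comparison. Syvn1 alone of the 8 was called, against 14.7% of all genes called lower and 0.942% higher.

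The values on the arrays are fluorescence intensities that the authors multiplied by 1 factor per array (1.14 on H001, 0.888 on H002, 1.11 on H003 and 0.909 on H004). The factors did not bring the control arrays together: over all genes tested the median ratio of H001 to H002 was 1.42, and 41 of the 43 members were brighter on H001. The median difference in log2 intensity per probe was 0.50 between the control arrays and 0.03 between the cordycepin arrays. A probe counted as detected at a deposited detection p under 0.05, and 36 members were detected on every array, 3 on some (Atf6, Creld1 and Ube2j2) and 4 on none (Ern1, Manf, Pdia3 and Sec24d). Of 10 Leydig cell markers, 8 had a probe and 6 were detected on every array, with Hsd3b1 and Fdx1 brightest, while Cyp11a1, a defining enzyme of steroid synthesis, was listed at 0 on all 4 arrays. The summed level of the Leydig markers was 38344 and 27278 in control and 26897 and 25917 with cordycepin. Of the markers of other cells, 2 of 5 Sertoli, 1 of 4 germ cell, 1 of 4 macrophage, 0 of 3 peritubular and 2 of 3 endothelial genes were detected on every array, and the Sertoli cell gene Rhox5 read 22684 and 17297 in control and 21940 and 19212 with cordycepin. The Leydig factor Nr5a1 and the Sertoli factor Sox9 were called lower, and the part of these markers in the results below was not tested.

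**Figure D2:**
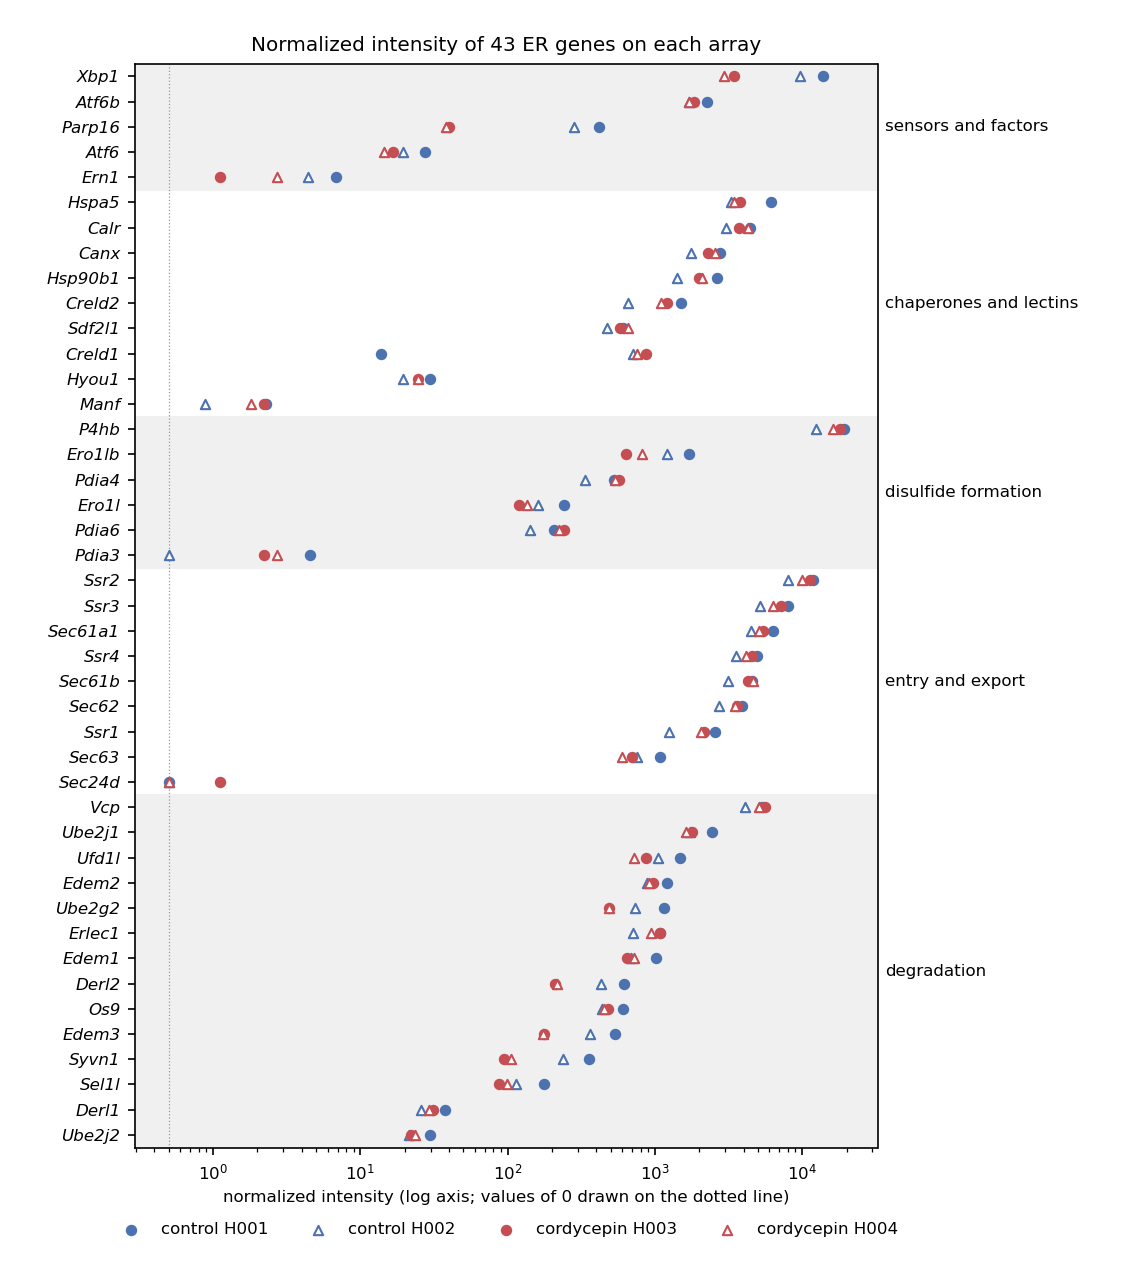
Normalized intensity (log axis) of the 43 members on the 4 arrays, by role and by control mean within a role. Circles and triangles are the first and second array of a group, blue control and red cordycepin. Parp16 and Xbp1 stand apart to the left with cordycepin, and Creld1 has 1 control array far below the other 3.

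With cordycepin, 6 members fell and 1 was called higher among the 41 tested (limma, Benjamini-Hochberg adjusted p under 0.05 over all probes). Those that fell were Parp16, Xbp1, Ern1, Syvn1, Edem3 and Derl2, and the one called higher was Creld1, whose call rests on 1 control array. The share that fell, 14.6%, was near that of all genes tested, 14.7%, and 0.942% of all genes were called higher. The median log2 ratio of the 41 was -0.05, against -0.13 over all genes. In the methods' t-test, at an unadjusted p under 0.05 and a log2 ratio of 1 or more in size, 5 members were lower (Parp16, Xbp1, Syvn1, Edem3 and Derl2) and 0 higher, and after adjustment 0 and 0. Both cordycepin arrays were below both controls in 13 of the 41, above both in 3, and overlapped them in 25, against 35.5%, 8.64% and 55.8% of all genes. In this fit, on the deposited scaling with all 4 arrays, every log2 ratio has the same standard error, 0.41, because limma estimated a single variance for all probes. Under that error only a log2 ratio of 1.10 or more was called.

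The calls were set against 3 other scalings of the arrays, which move the all-gene median log2 ratio from -0.13 to 0.21 (each array centred on its median), 0.12 (quantile normalization of the raw intensities) and -0.45 (each array centred on its ribosomal protein genes). With median centring 7 members were lower and 11 higher, against 19.8% and 19.9% of all genes. With quantile normalization 5 were lower and 8 higher, against 17.2% and 22.0%. With the ribosomal protein centring 21 were lower and 0 higher, against 47.2% and 1.21%. Relative to the all-gene median of the same scaling, the members' median lay 0.08 above it as deposited and 0.06 above it after quantile normalization. Parp16, Xbp1, Syvn1, Edem3 and Derl2 were lower under all 4 scalings, and no member called higher as deposited was so under another. The log2 ratios also moved with the control arrays, for the members as for all probes. Without H002 the members' median log2 ratio was -0.37, against -0.37 over all probes, and without H001 it was 0.20, against 0.15. Without H002, Atf6, Hspa5, Sel1l, Ero1l, Ero1lb, Ufd1l and Ube2g2 had log2 ratios from -1.24 to -0.76. Without H001, Creld2, Manf, Ssr1 and Pdia4 had ratios from 0.72 to 1.18, the highest that of Manf, which was detected on no array.

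**Figure D3:**
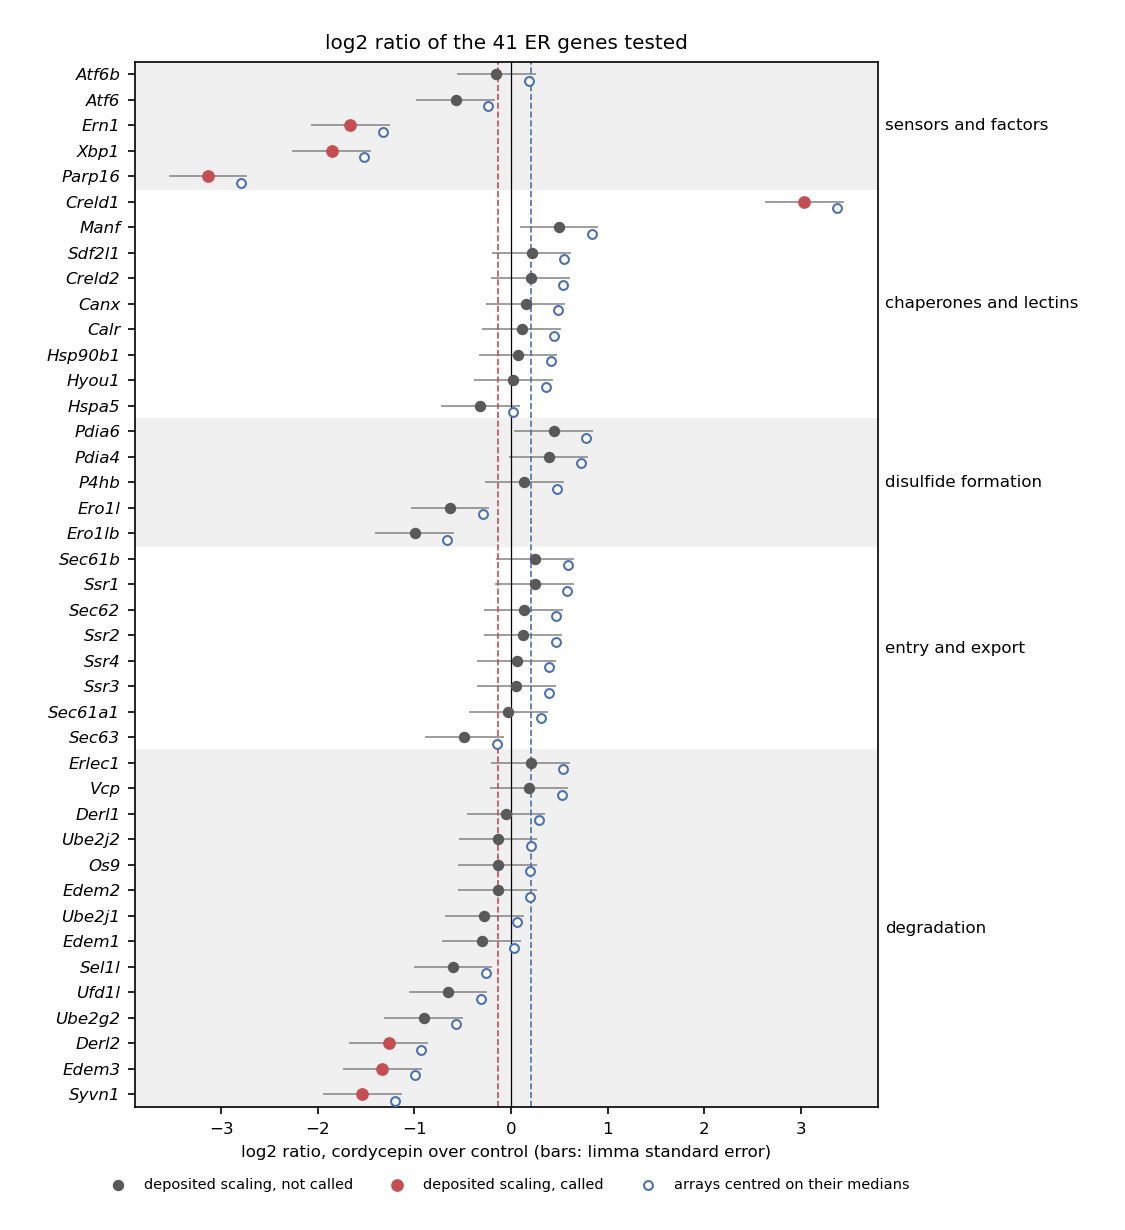
log2 ratio of cordycepin over control for the 41 members tested, by role. Filled points with standard error bars are on the deposited scaling (red where called), open blue points are with each array centred on its median, and dashed lines are the all-gene medians, -0.13 and 0.21. Under both scalings the sensors, Atf6b only just, and part of the degradation genes lie left of the matching line. So do Ero1lb, Ero1l, Sec63 and Hspa5 of the other roles.

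Among the sensors and their factors, with Parp16 counted among them, 3 of 5 fell, against 14.7% of all genes. Their median log2 ratio was -1.67, which is -1.53 relative to all genes. That median is the ratio of Ern1, whose probe was detected on no array. Without Ern1 2 of 4 fell (Parp16 and Xbp1), with a median of -1.22. Parp16, an ER-anchored ADP-ribosyltransferase reported to modify IRE1 and PERK, fell most of all members. Its intensity was 418 and 283 on the control arrays and 40.0 and 38.2 on the cordycepin arrays. The cordycepin values were close to each other and far below both controls, an 8.80-fold fall (log2 ratio -3.14, limma adjusted p = 9.2e-13). The call held with each array left out in turn, with log2 ratios from -3.42 to -2.86.

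Xbp1, the transcription factor gene that IRE1 acts on, was the brightest of the 6 that fell. It read 13807 and 9725 in control and 3453 and 2963 with cordycepin, so that the groups were well apart, a 3.62-fold fall (log2 ratio -1.86, limma adjusted p = 8.2e-05). Without cordycepin array H004 the log2 ratio was -1.75 and its limma adjusted p 0.060, above the threshold. The probe's place on the transcript is not given in the sources used here, so spliced and unspliced Xbp1 could not be told apart.

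Ern1, the gene of IRE1 itself, read 6.87 and 4.44 in control and 1.11 and 2.73 with cordycepin. It was called lower (log2 ratio -1.67, limma adjusted p = 5.6e-04), but the probe was detected on no array, 1 of its spots was flagged, and no fold is given. The call was lost with median centring (limma adjusted p = 0.099), after quantile normalization (0.096), without H001 (0.17), without H002 (0.077) and without H003 (0.58). Atf6, the sensor that is cleaved in the Golgi into a transcription factor, was also dim, at 27.5 and 19.5 in control and 16.7 and 14.5 with cordycepin. Its cordycepin arrays were below both controls but not detected, and the fall was at least 1.02-fold (log2 ratio -0.57, limma adjusted p = 0.54). Such a bound compares a group's mean with the dimmest detected intensity of the arrays that did not detect the probe. Its relative Atf6b was well detected, at 2272 and 1704 in control and 1833 and 1714 with cordycepin. The cordycepin arrays lay between the controls (log2 ratio -0.15, limma adjusted p = 0.99).

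Among the chaperones and lectins 0 of 9 were called lower, against 14.7% of all genes, and the difference from that share was not tested. At an unadjusted p under 0.05, 0 were lower also in limma or the methods' t-test. Their median log2 ratio was 0.15 as deposited and 0.49 with median centring, but -0.17 on the ribosomal protein centring. On the deposited scaling it lay 0.28 above the all-gene median. Hspa5 encodes BiP, the main ER chaperone, which also holds the sensors inactive. It read 6138 and 3301 in control and 3803 and 3432 with cordycepin. Both cordycepin arrays lay between the controls (log2 ratio -0.32, limma adjusted p = 0.88). The log2 ratio of Hspa5 was -0.76 without H002 and 0.13 without H001. With H001 left out, Creld2 had a log2 ratio of 0.80 and Manf, which was detected on no array, 1.18. Hsp90b1, the ER form of the HSP90 chaperones, read 2648 and 1418 in control and 2001 and 2073 with cordycepin (log2 ratio 0.07). The lectins Calr and Canx, which hold glycoproteins while they fold, had log2 ratios of 0.11 and 0.15, and a second Canx probe had 0.18. Sdf2l1, a partner of BiP, had 0.21, the secreted ER stress gene Creld2 had 0.20, and Hyou1, the exchange factor of BiP, was dim and had 0.02. With median centring Canx and Sdf2l1 of these were called higher, and after quantile normalization Sdf2l1 and Hyou1.

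Creld1, an ER membrane protein, was the member called higher. It read 13.7 and 708 in control and 868 and 756 with cordycepin. One control array, H001, stood far below the other 3 and did not detect the probe, while H002 was close to the cordycepin arrays (log2 ratio 3.04, limma adjusted p = 5.2e-12). Without H001 the log2 ratio was 0.20 and its limma adjusted p 0.47, and the gene was called under none of the other scalings, with limma adjusted p from 0.27 to 0.37. Manf, a secreted ER stress protein, was detected on no array, at 2.29 and 0.888 in control and 2.22 and 1.82 with cordycepin (log2 ratio 0.50, limma adjusted p = 0.60), and gets no fold.

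In the disulfide group the isomerases had ratios above 0 and the oxidases below 0 as deposited, but P4hb was at -0.19 on the ribosomal protein centring and Ero1l at 0.18 after quantile normalization. None of the 5 tested was called in either direction by limma, against 14.7% of all genes lower and 0.942% higher. Before adjustment 1 was lower in limma (unadjusted p under 0.05). The counts were 0 higher in limma and 0 in either direction in the methods' t-test at that level. Pdia6 read 206 and 141 in control and 242 and 222 with cordycepin, above both controls (log2 ratio 0.44, limma adjusted p = 0.69). Pdia4 read 528 and 336 in control and 571 and 535 with cordycepin, also above both (log2 ratio 0.39, limma adjusted p = 0.78). Both isomerases were called higher with median centring (limma adjusted p = 0.012 and 0.018) and after quantile normalization (0.0046 and 0.0068), but not on the ribosomal protein centring. P4hb, protein disulfide isomerase itself, was the brightest member at 19158 and 12477 in control and 17943 and 16094 with cordycepin (log2 ratio 0.14), and it was called higher with median centring alone. Ero1lb and Ero1l (now Ero1b and Ero1a) encode the oxidases that recharge the isomerases. Ero1lb read 1706 and 1213 in control and 633 and 819 with cordycepin, below both controls (log2 ratio -1.0, limma adjusted p = 0.086). It passed the threshold with median centring (limma adjusted p = 0.043), on the ribosomal protein centring (0.0053) and with an intensity trend in limma (0.041). Ero1l read 242 and 162, then 119 and 136 (log2 ratio -0.63, limma adjusted p = 0.44). The difference between isomerases and oxidases was not tested. Pdia3, the isomerase that works with the lectins, was listed at 0 on H002, detected on no array and not tested.

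The entry and export genes lay close to 0 as a group, and limma called 0 of 8 tested in either direction. The shares of all genes were 14.7% lower and 0.942% higher, and the difference from them was not tested. At an unadjusted p under 0.05, limma and the methods' t-test also had 0 of the 8 in either direction. The channel genes Sec61a1 and Sec61b had log2 ratios of -0.03 and 0.25. Sec61b, with the highest ratio of the group, read 4534 and 3131 in control and 4301 and 4661 with cordycepin, and the groups overlapped (limma adjusted p = 0.93). Ssr1, Ssr2, Ssr3 and Ssr4, the subunits of the complex that sits beside the channel, had ratios from 0.05 to 0.25, all overlapping. With H001 left out Ssr1 had a log2 ratio of 0.76, and a second Ssr1 probe had 0.51 with all arrays and was not called. Of the pair that helps chains into the channel, Sec62 had 0.13, and Sec63 was below both controls at 704 and 602 against 1089 and 761 (log2 ratio -0.48, limma adjusted p = 0.62). The group's median was 0.09 as deposited, 0.43 with median centring and -0.23 on the ribosomal protein centring. With median centring 4 genes (Sec61b, Sec62, Ssr2 and Ssr4) were called higher, against 19.9% of all genes. On the ribosomal protein centring Sec61a1 and Sec63 were called lower, against 47.2% of all genes. Sec24d, a subunit of the COPII coat that carries proteins out of the ER, was listed at 0 on H001, H002 and H004, detected on no array and not tested.

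Of the 14 degradation genes, 3 fell and none was called higher (limma; 0 higher at an unadjusted p under 0.05 in limma or the methods' t-test), with a median log2 ratio of -0.29. The share that fell, 21.4%, stood against 14.7% of all genes. Syvn1 encodes HRD1, the ubiquitin ligase at the centre of the pathway. It read 356 and 237 in control and 94.4 and 105 with cordycepin, clearly below both controls, a 2.91-fold fall (log2 ratio -1.54, limma adjusted p = 0.0017). Its promoter, shown above, holds the ERSE match nearest to a start. Sel1l, the adaptor that HRD1 needs, read 176 and 114, then 87.8 and 99.1, below both controls but not called (log2 ratio -0.60, limma adjusted p = 0.50).

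Edem3, one of the mannosidase-like proteins that mark misfolded glycoproteins, read 536 and 364 in control and 178 and 173 with cordycepin. The groups were apart, a 2.52-fold fall (log2 ratio -1.33, limma adjusted p = 0.0098). A second Edem3 probe read 239 and 168, then 71.1 and 73.6, and fell alike (log2 ratio -1.47, limma adjusted p = 0.0033). Edem1 and Edem2 overlapped the controls, with log2 ratios of -0.30 and -0.14, and their difference from Edem3 was not tested. Derl2, a membrane protein of the exit channel, read 612 and 431 in control and 211 and 216 with cordycepin, a 2.41-fold fall with the groups apart (log2 ratio -1.27, limma adjusted p = 0.016). Its relative Derl1 was dim, at 37.8 and 25.7, then 31.1 and 29.1 (log2 ratio -0.05). With either cordycepin array left out, Syvn1, Edem3 and Derl2 kept log2 ratios from -1.62 to -1.25, but the 3 calls were lost. The fit's standard error rose from 0.41 to 0.61. Under that error only a log2 ratio of 1.78 or more in size was called without H003, and 1.79 without H004.

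The other degradation genes were not called as deposited. Ube2g2, a ubiquitin-conjugating enzyme that serves HRD1 and related ligases, read 1155 and 729 in control and 491 and 489 with cordycepin, below both controls (log2 ratio -0.90, limma adjusted p = 0.14). Its dimmer probe read 564 and 415, then 208 and 198, and was called lower (log2 ratio -1.25, limma adjusted p = 0.017). The mean of both probes was called lower as well (limma adjusted p = 0.036). Ube2j1 and Ube2j2, conjugating enzymes anchored in the ER membrane, had log2 ratios of -0.28 and -0.14. Ufd1l (now Ufd1), a cofactor of the p97 ATPase that pulls chains out of the membrane, read 1479 and 1048, then 870 and 719 (log2 ratio -0.65, limma adjusted p = 0.41). Vcp, the gene of p97, had a log2 ratio of 0.19 as deposited and -0.14 on the ribosomal protein centring. The lectins Os9 and Erlec1, which bring trimmed glycoproteins to the ligase, had -0.14 and 0.20 as deposited. On the ribosomal protein centring 12 of the 14 were lower, against 47.2% of all genes, the exceptions being Vcp and Erlec1.

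**Figure D4:**
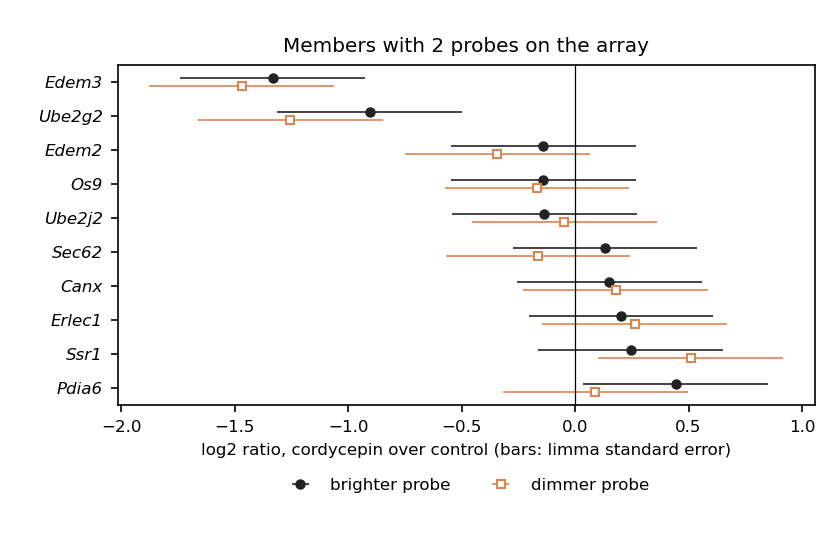
log2 ratio with limma standard error for the 10 members with 2 probes, the brighter probe filled and the dimmer open. The probes of a gene lie within 1 standard error of each other, and both probes of Edem3 and Ube2g2 lie far left.

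By brightness, of the 20 members with a control mean of at least 1000, Xbp1 alone fell, and of the 21 dimmer members tested 5 fell, against 15.5% and 14.5% of all genes in the same classes. The difference between the classes was not tested. The brightest members after P4hb and Xbp1, which were Ssr2, Ssr3, Sec61a1, Vcp and Hspa5, had log2 ratios between -0.32 and 0.19. Of the 8 members with an ERSE match, 1 fell (Syvn1), against 14.7% of all genes. A match stood in 7 of the 26 members with a window and no call. Of the 6 that fell, all had a window, and the 5 other than Syvn1 held no match. The difference between members that fell and those not called was not tested.

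Further genes of the same organelle were counted by list. In the PERK arm, the branch of the response that slows translation, 9 of 12 fell, with a median log2 ratio of -2.31. Of the 9, Atf3 was detected on no array, and Sesn2 was not detected with cordycepin, a fall of at least 1.38-fold. The call of Ppp1r15a was lost under the other scalings. Counts in the other lists were 1 of 6 J-domain partners of BiP, 1 of 9 further oxidoreductases, 0 of 15 genes of N-glycosylation and glucose trimming, 0 of 15 of the signal peptidase and signal recognition particle, 2 of 9 of the COPII coat and 4 of 20 further degradation genes. Over all these lists, the PERK arm included, 17 of the 86 genes were called lower as deposited (19.8%), against 14.7% of all genes. None was called higher, against 0.942% of all genes, and at an unadjusted p under 0.05 limma and the methods' t-test had 0 higher as well. In the glycosylation and signal peptidase lists both had 0 lower at that level too. With median centring 21 of the 86 were lower and 15 higher, against 19.8% and 19.9% of all genes. After quantile normalization 21 were lower and 23 higher, against 17.2% and 22.0%, and on the ribosomal protein centring 50 and 0, against 47.2% and 1.21%.

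The largest changes in these lists were those of Ppp1r15a, Chac1 and Trim13. Chac1, a glutathione-degrading enzyme gene downstream of ATF4, read 713 and 462 in control and 23.3 and 24.5 with cordycepin, where H003 did not detect the probe, and it was called lower under all 4 scalings (log2 ratio -4.58 as deposited). Ppp1r15a, the phosphatase subunit that reverses PERK signalling, read 213 and 140 in control and 1.11 and 30.0 with cordycepin (log2 ratio -4.90). Its cordycepin arrays disagreed, 1 of them did not detect the probe, and the call was lost under the other scalings (limma adjusted p from 0.074 to 0.21). Trim13, an ER-anchored ubiquitin ligase gene, read 337 and 237 in control and was not detected with cordycepin, at 11.1 and 12.7, a fall of at least 12.5-fold (log2 ratio -4.57) called under all 4 scalings.

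**Figure D5:**
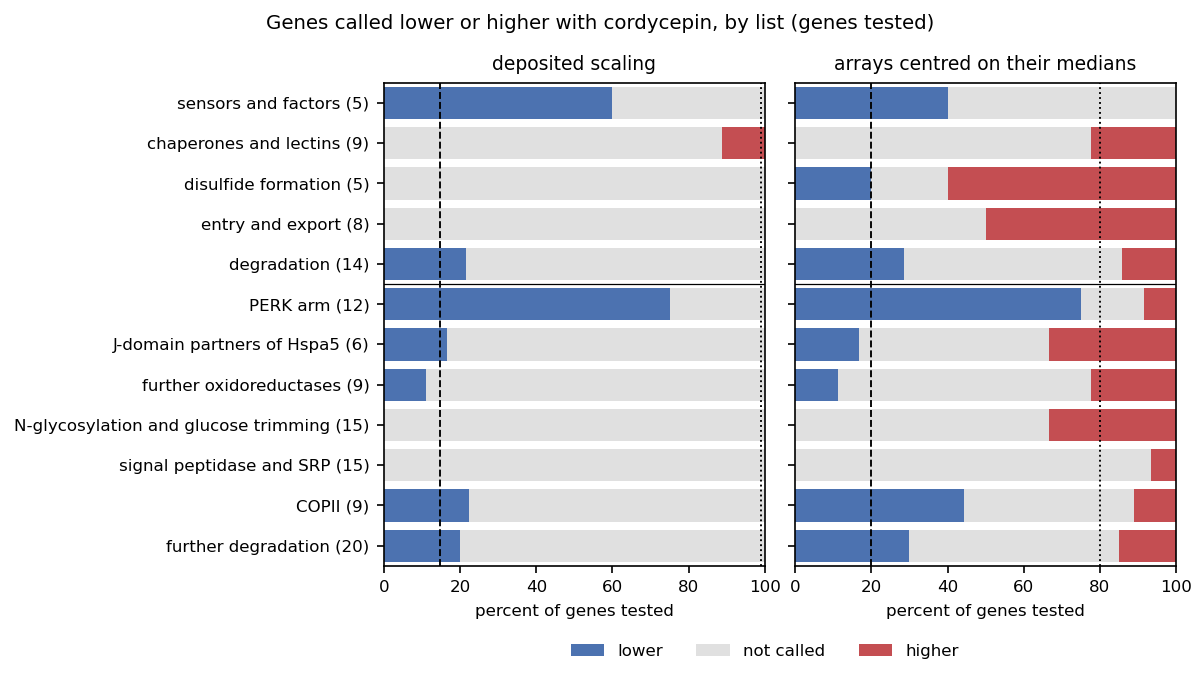
Percent of the genes tested that were called lower (blue, from the left) or higher (red, from the right) with cordycepin in each role of the members (above the line) and each further list, on the deposited scaling and with each array centred on its median. The dashed and dotted lines mark the shares of all genes called lower (14.7% and 19.8%) and higher (0.942% and 19.9%). The PERK arm, with the undetected Atf3 counted in it, has the longest blue bar under both. The sensors and factors (60% and 40%), a group that includes Parp16 and the undetected Ern1, lie past the dashed line in both. So do the COPII coat (22.2% and 44.4%), the degradation genes (21.4% and 28.6%) and the further degradation genes (20% and 30%).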

How the data were processed

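RNA of MA-10 cells (2 vehicle, 2 cordycepin) was read on 1-colour Mouse OneArray version 2 arrays. The labels state a Cy5 label, a protocol with oligo-dT priming and radioactive dCTP, and in 1 field another dose unit than the 100 µM used here. The deposited normalized intensity was the authors' raw intensity times 1 factor per array. The method behind the factor is not given in the sources used here. The detection p-value was deposited per probe and array. The deposited spot flags are a score whose meaning is not stated, and flagged spots were kept. The authors' own columns of mean, CV, log2 ratio and p were not used.

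Of 26423 probes, 24319 that were above 0 on each of the 4 arrays were tested as log2 intensity with limma 3.58.1 (R 4.3.3; lmFit and eBayes), Benjamini-Hochberg adjusted over all of them, and called at an adjusted p under 0.05; 2104 were left out. A gene was its brightest probe. On simulated data for this comparison (24319 probes, the fit's pooled spread) 7 of 100 changes of log2 1 and 87 of 100 of log2 2 were recovered. That 2 arrays stand for a group limits the precision, and depth does not apply. Members and lists were chosen with earlier results of these data known. All 43 members are named. Those called, the sensors and factors, Hspa5 and the 5 highest log2 ratios are given per array, as are others below both controls, and of the further lists the 3 largest calls. Alternatives were other array scalings, an offset of 50, detected probes only, an intensity trend, the methods' t-test, the mean of a gene's probes and each array left out. Motifs were searched as exact letters in RefSeq promoter windows.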

Additional observations from a re-analysis of the deposited data

How the results depend on the processing

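As deposited, 6 members were lower and 1 higher, with a median log2 ratio of -0.05. Members called higher became 11 with median centring, 8 after quantile normalization and 0 on the ribosomal protein centring, with an offset of 50 before log2 and in the methods' t-test. Members called lower became 21 on the ribosomal protein centring, and 0 with the offset and, after adjustment, in the methods' t-test, which had 5 lower at the methods' own threshold on the unadjusted p. The offset left 4599 of all 26423 probes at an unadjusted p under 0.05 in limma, but after adjustment only 0 lower and 3 higher. The methods' t-test left 3168 probes at that unadjusted level, and 0 after adjustment. The median log2 ratio became 0.29 with median centring. Leaving out each array in turn gave 2 to 12 members lower, 1 to 4 higher and medians from -0.37 to 0.20. The 12 came without control array H002, the 4 without H001, and the 2 without either cordycepin array, where the lone array is assumed to vary like the other group. No called member changed direction under any of these alternatives. With detected probes only, an intensity trend or the mean over a gene's probes, 7 were lower and 1 higher in each. Of all 13317 detected probes, 3680 were lower and 153 higher. With the trend 3598 of 24319 probes were lower and 247 higher, and with the mean 2870 of 18478 genes and 204. The cause of these moves was not tested. Dim probes limit the reading of Ern1, Atf6, Manf, Pdia3 and Sec24d. No paired analysis was possible because the labels number the arrays H001 to H004 and the groups share no number.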
